A study of Rattus norvegicus with 30 samples.

Results

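The kidneys described here came from rats that received saline alone: 5 were taken at 34 h and 5 at 10 h. They were chosen by their labels and make up 10 of the 30 libraries of a study of mercury chloride (HgCl2), a salt toxic to the kidney tubule. The saline groups received 1 ml/kg saline and no HgCl2, the other groups 0.25 or 0.50 mg/kg HgCl2, with 5 rats per dose and time. All animals were Sprague-Dawley rats, an outbred stock. The labels name no allele or agent beyond these, and the sources used here do not give age, sex, clock hour or the route of dosing. Whole frozen kidneys were powdered before RNA was taken, so that each library averages over cortex, medulla and every cell type, and a lower share of cells of a type cannot be told apart from less RNA per cell.

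Kidney RNA comes mostly from tubule cells, which take back filtered salt, glucose and amino acids and are packed with mitochondria to pay for it. Glomeruli, vessels, connective tissue and resident immune cells add smaller shares. Many kidney transcripts also follow the time of day, the last meal and handling of the animal. The sampling times lay 24 h apart, so the comparison asks what differs between kidneys of untreated rats taken on 2 collection days. The deposited data name transcripts by Ensembl ID alone and no table used here pairs those IDs with genes, so neither the kidney label nor any pathway could be checked against marker genes, and the transcripts are described by level, length and spread.

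Library depth and the other measures of a whole library overlapped between the times. Estimated counts on transcripts were 28.5 ± 3.21 M at 34 h and 29.1 ± 2.0 M at 10 h (M, mega; SD, n = 5 each). Transcripts at 1 TPM or more numbered 17553 ± 197 at 34 h and 17734 ± 318 at 10 h. TPM is counts divided by an effective length, given with the counts, in place of the full length. It is then scaled to a sum that is the same in every library. Genomic intervals, which the authors quantified beside the transcripts, held 6.54 ± 0.692% of counts at 34 h and 7.0 ± 1.05% at 10 h. For these 3 measures, the share of the 100 most abundant transcripts and each library's distance from its own group, two-sided exact permutation p lay between 0.349 and 0.881 (0.820 to 0.881 after adjustment over the 5 measures, where 0.007937 is the smallest p that 5 against 5 allows). Replicates are numbered here in the order of the libraries. Libraries numbered 43 to 45, 51 and 52 were from 34 h and those numbered 36 to 40 from 10 h, so an effect of the run of library numbers cannot be told apart from one of collection time.

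Saline kidneys put a large share of their RNA into few transcripts. The 10 most abundant transcripts of a library held 17.0 ± 1.12% of its transcript counts, the top 100 held 31.6 ± 1.05% and the top 1000 held 57.7 ± 0.858% (SD, n = 10). On average 585.9 transcripts made up 50% of the counts and 6354 made up 90%. Per effective length, in TPM, the top 10 held 26.6 ± 1.70% and 157.1 transcripts made up 50%.

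These shares hardly moved with the day. The top 100 held 31.6 ± 1.14% of counts at 34 h and 31.7 ± 1.09% at 10 h (SD, n = 5 each). Kidneys at 34 h needed 581.6 ± 42.0 transcripts for 50% of their counts, and those at 10 h needed 590.2 ± 42.4, a difference smaller than the SD within either time. Pairs of libraries from different times shared a median of 91 of their top 100 transcripts by TPM, and pairs of the same time 92. In all, 77 transcripts were in the top 100 of all 10 libraries and 134 in that of any.

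**Figure D1:**
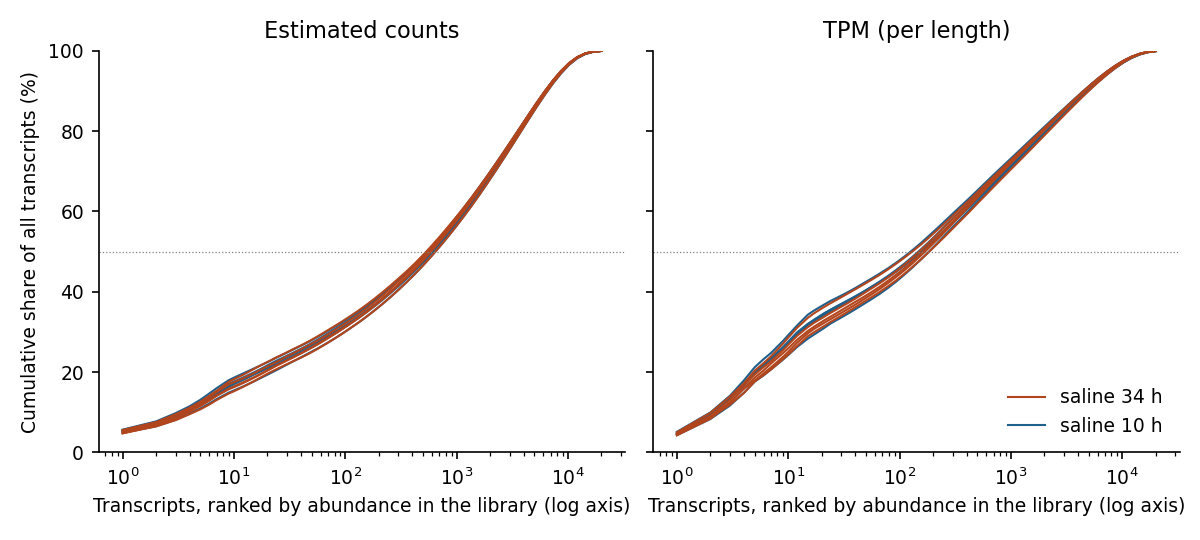
Cumulative share of transcript counts (left) and of TPM (right), in percent, against the rank of a transcript by abundance in its own library (log axis), with 1 line per saline library and the times by colour. The 10 lines lie close together, and the dotted line marks 50%, reached at 585.9 transcripts by counts and 157.1 by TPM on average.

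Above 1000 TPM stood 85 transcripts, 0.212% of the 40071 listed, and they held 43.8% of TPM and 27.1% of counts. The next class, 100 to 1000 TPM, had 1089 transcripts and 29.8% of TPM. Between 10 and 100 TPM lay 7278 transcripts, and 9524 lay between 1 and 10 TPM. The most abundant class was also short, with a median length of 824 bp against 1942 bp in the class of 10 to 100 TPM. Transcripts under 300 bp held 9.0% of TPM but 0.423% of counts, and 7 of the 85 were of that length. The 204-bp ENSRNOT00000046201 held 2.87% of TPM and 0.131% of counts, and the 681-bp ENSRNOT00000046108 held 4.59% and 1.81%. Division by effective length thus raised the shorter one by more than its full length would.

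About as many transcripts were seen in every kidney as were missing from some or all of them. At least 1 count was found in all 10 libraries for 20299 transcripts (50.7%), in 1 to 9 libraries for 9526 and in none for 10246. Of the transcripts found in some libraries, 2095 were found in 1 library only. A level of 1 TPM or more in all 10 libraries was reached by 15254 transcripts.

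The leading transcript differed between animals. ENSRNOT00000046108 (681 bp) had 49446, 42430.1, 43107, 45987 and 42269 TPM in the 34 h libraries and 46762, 47579, 45779, 39467 and 50734 TPM in the 10 h libraries. ENSRNOT00000050156 (1545 bp) had 48073, 40595, 43026, 44179.9 and 42763 TPM in the 34 h libraries and 47144, 48031, 45753, 42257 and 47740.2 TPM in the 10 h libraries. The ranges of these transcripts overlapped between the times and with each other, and the first led in 6 libraries and the second in 4. By counts the longer ENSRNOT00000050156 came first, with 5.22% of all transcript counts against 1.81% for ENSRNOT00000046108.

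The other 8 of the top 10 by mean TPM were ENSRNOT00000049683, ENSRNOT00000043693, ENSRNOT00000046201, ENSRNOT00000042098, ENSRNOT00000079830, ENSRNOT00000047550, ENSRNOT00000040993 and ENSRNOT00000041241. Their means ran from 37782 down to 12619 TPM. The coefficient of variation of the top 10 over the 10 libraries was 6.10 to 14.2%. It was highest in ENSRNOT00000040993 (14.2%) and in ENSRNOT00000046201 (14.1%), a 204-bp transcript whose estimated counts were not whole, as happens where reads that match several transcripts are split among them. None of the 10 passed the test for a difference between the times (edgeR's quasi-likelihood test with Benjamini-Hochberg adjustment, adjusted p 0.600 to 0.987).

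Kidneys of 1 time varied little from rat to rat for transcripts of middle and high level. Over 21112 transcripts with enough counts to test, the median within-group SD of log2 CPM (counts scaled to library size after TMM normalization) was 0.215, with 0.206 at 34 h and 0.197 at 10 h. It was 0.631 below 1 CPM, 0.354 at 1 to 5 CPM, 0.186 at 5 to 20 CPM, 0.117 at 20 to 100 CPM and 0.106 above 100 CPM. Counting alone would give median SDs of 0.516, 0.187, 0.0845, 0.0432 and 0.0206 in these 5 classes. Above 100 CPM the spread was thus several times that of counting. Below 1 CPM the 2 values lay closer, but log2 CPM carries a prior count of 2, which narrows the spread of low counts. The counting SD carries none, so the values are not alike in that class.

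**Figure D2:**
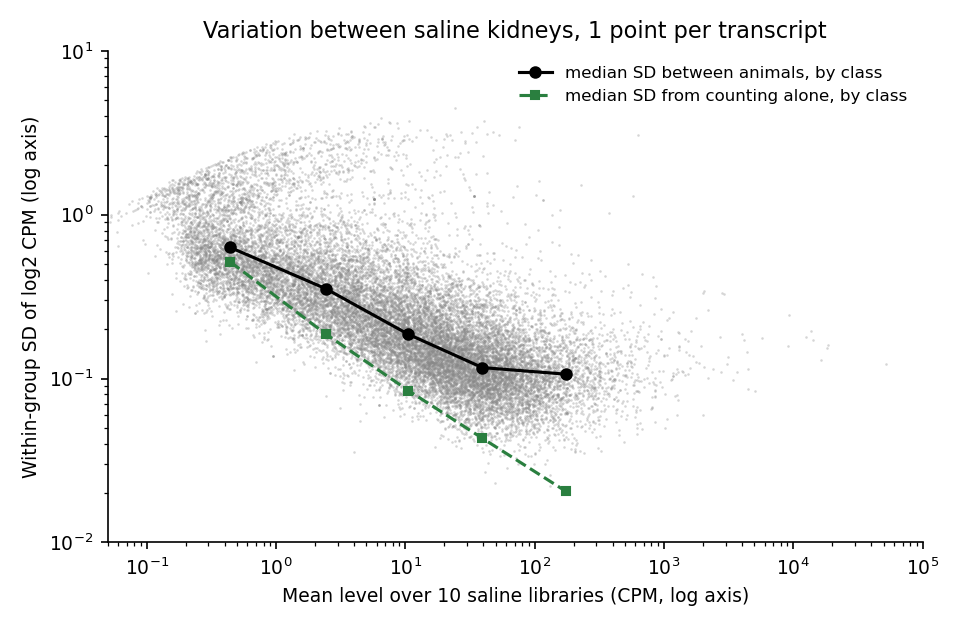
Within-group SD of log2 CPM (log axis) against the mean level in CPM over the 10 saline libraries (log axis), with 1 grey point per transcript, black circles for the median SD of each level class and green squares for the median SD that counting alone would give. The distance between the lines widens from 0.631 and 0.516 below 1 CPM to 0.106 and 0.0206 above 100 CPM. Outside the axes lie 13 of the 21112 transcripts.

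The steadiest transcripts of at least 5 CPM had almost flat levels. ENSRNOT00000026273 (2402 bp) ranged from 130.9 to 137.7 CPM at 34 h and from 127.5 to 129.6 CPM at 10 h, with a within-group SD of 0.022 on the log2 scale. Its groups did not overlap, though they lay close together. ENSRNOT00000002550 (3382 bp, whole counts) ranged from 47.8 to 50.1 CPM at 34 h and from 48.8 to 49.7 CPM at 10 h. ENSRNOT00000077943 (7508 bp) ranged from 128.2 to 135.6 CPM at 34 h and from 130.4 to 134.2 CPM at 10 h. In this order, the within-group SDs were 0.0220, 0.0229 and 0.0256, and counting alone would give 0.0235, 0.0385 and 0.0235. The spread of these transcripts thus lay near or below that of counting. In the 20 treated kidneys the same transcripts spread more widely, and ENSRNOT00000026273 lay between 111.4 and 163.7 CPM there. They were picked as the steadiest of the saline libraries, so that wider ranges elsewhere carry no weight.

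Other transcripts were present in some saline kidneys and at 0 in others. ENSRNOT00000086293 (847 bp) had 50.2, 30.9, 0, 32.2 and 0 CPM in the 34 h libraries and 33.9, 43.5, 24.9, 27.1 and 0 CPM in the 10 h libraries. The 3 libraries at 0 came from both times, and no library lay between 0 and 24.9 CPM. ENSRNOT00000067849 (941 bp) had 0.152, 22.9, 0, 0 and 34.6 CPM in the 34 h libraries, and in the 10 h libraries it stood at 2.78 and 4.38 CPM in replicates 3 and 4 and at or near 0 in the rest. The 2 libraries over 20 CPM were both from 34 h, and the other libraries of that time were at or near 0. Neither transcript had whole counts in every library, so a 0 here is an estimate.

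In all, 173 transcripts were at 0 in at least 1 saline library and at 5 CPM or more in another. Whole counts in every library were less common among them (25, or 14.5%) than among the 14135 transcripts that reached 5 CPM in any saline library (42.1%). Of 9 transcripts with a 0 in some library and 5 CPM or more in at least 5 others, 0 had whole counts. Counts that are not whole, split between similar transcripts, thus went with this pattern, and their part in it was not tested. No transcript was at 0 in all libraries of a time and at 1 CPM or more in all libraries of the other. The median within-group SD was 0.166 for transcripts with whole counts and 0.261 for those without, which also had the lower median level (7.52 CPM against 14.1 CPM).

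Replicate 2 at 10 h stood apart from the other saline kidneys. In it, 244 transcripts lay over 2-fold above all 9 other saline libraries and 48 lay over 2-fold below them. In the other 9 libraries 9 to 95 transcripts lay above, 95 of them in replicate 4 at 10 h, and 63 to 119 below. On the first principal component of log2 CPM, which held 19.3% of the variance, replicate 2 scored 104 and the other 9 libraries scored between −28.1 and 3.97.

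Its 244 high transcripts summed to 24559.9 CPM (2.41% of its counts), against 898 to 1224 CPM in the other 9 saline libraries. Their median level was 25.2 CPM in this kidney and 0.418 to 0.842 CPM in the others. The 10 most abundant of them held 51.7% of the sum, and 43.9% had whole counts, so that most of the sum rests on few transcripts. ENSRNOT00000019969 (4620 bp) had 398.5 CPM in replicate 2 at 10 h, and the other 9 saline libraries ran from 0 to 3.41 CPM.

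The 3 transcripts farthest beyond the other libraries were near 0 in every other saline kidney. ENSRNOT00000015732 (1756 bp, whole counts) stood at 52.8 CPM in replicate 2 and at no more than 0.156 CPM in the 9 others. ENSRNOT00000041341 (1196 bp, whole counts) stood at 35.7 CPM, against at most 0.143 CPM, and ENSRNOT00000047655 (1864 bp) at 26.2 CPM, against at most 0.0829 CPM. Since no gene names could be attached, it was not possible to say which cell type or tissue these transcripts mark.

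By their median, the same transcripts were also higher, to a lesser extent, in 2 treated kidneys. In replicate 4 of 0.25 mg/kg at 34 h, 202 of the 244 lay above all 9 other saline libraries, where 10.6% of all transcripts did. In replicate 5 of 0.50 mg/kg at 34 h it was 204 of 244, against 11.01% of all transcripts. Their median levels there were 4.64 and 5.21 CPM, while the other 18 treated libraries lay between 0.439 and 1.34 CPM. Next came replicate 1 of 0.25 mg/kg at 10 h, with 119 of 244, against 13.6% of all transcripts. Replicate 1 of 0.50 mg/kg at 10 h had 112, against 12.6% of all. Among the saline kidneys, replicate 3 at 34 h had 79 of the 244 above the 8 others compared, where 11.4% of all transcripts did. The summed level, which follows the most abundant of the 244, put the treated kidneys in another order. It was highest in replicate 2 of 0.50 mg/kg at 10 h, at 5623 CPM, followed by replicate 5 of 0.50 mg/kg at 34 h (5118 CPM), replicate 3 of 0.25 mg/kg at 10 h (5079.5 CPM), replicate 4 of 0.25 mg/kg at 34 h (4662 CPM), and replicates 1 and 2 of 0.25 mg/kg at 10 h (4178 and 3202 CPM). The other 14 treated libraries summed to between 949 and 1681 CPM. The list was chosen on replicate 2 against the 9 other saline libraries, which are also the reference here, so low levels in those 9 are part of the choice. Levels in the treated libraries were not part of it.

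**Figure D3:**
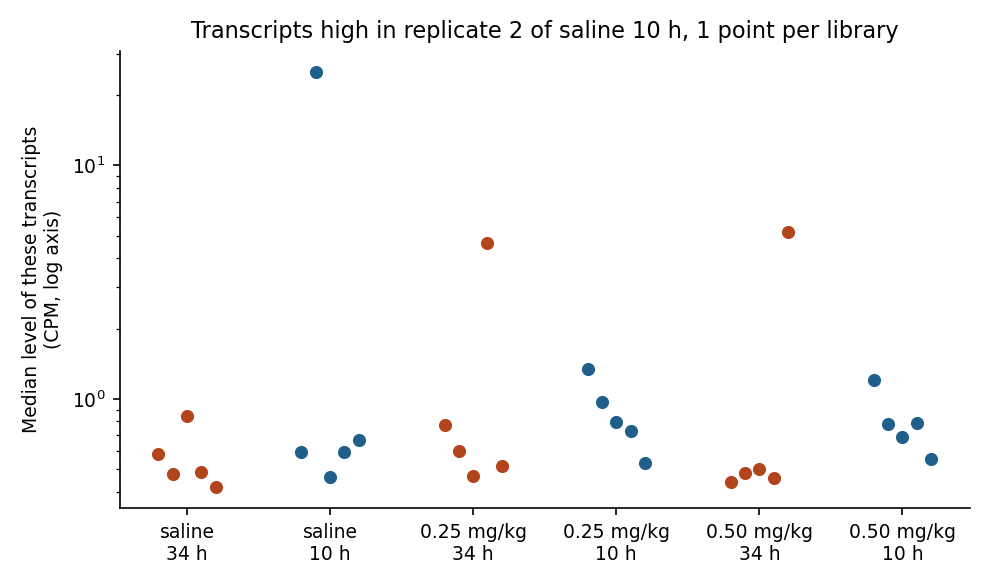
Median level in CPM (log axis) of the 244 transcripts that were high in replicate 2 of saline at 10 h, with 1 point per library and the 6 groups along the x axis, 34 h in red and 10 h in blue. Replicate 2 of saline at 10 h stands at 25.2 CPM, and replicate 4 of 0.25 mg/kg and replicate 5 of 0.50 mg/kg at 34 h stand at 4.64 and 5.21 CPM above the rest of their groups.

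Whole profiles of kidneys from different collection days lay about as far apart as those of kidneys from 1 day. Of the variance of log2 CPM, 11.4% lay between 34 h and 10 h (exact permutation p = 0.333, two-sided, over 252 splits). Any split of these libraries puts some variance between its parts, so the share alone does not measure an effect of time. The median distance between 2 libraries was 0.805 log2 units for the 25 pairs from different times and 0.811 for the 20 pairs of the same time.

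Most transcripts stood at nearly the same level on both days. The 34 h to 10 h difference was within 1.2-fold for 76.3% of the 21112 transcripts and within 2-fold for 96.1%. The 95% confidence interval of the difference lay within 2-fold either way for 77.8% of transcripts. That share was 98.9% above 100 CPM, 98.4% at 20 to 100 CPM and 93.7% at 5 to 20 CPM, and 74.0% and 20.5% in the classes of 1 to 5 CPM and below 1 CPM. For the other transcripts the interval reached past 2-fold on at least 1 side.

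Many of the large differences were of transcripts high in replicate 2 at 10 h. Of 12893 transcripts with a mean of 5 CPM or more, 117 differed over 2-fold, 15 higher and 102 lower at 34 h. Of the 117, 79 were among the 244 transcripts high in that kidney, where 102 of all 12893 were. The 244 were picked as over 2-fold above all other saline libraries in a 10 h library, so a lower mean at 34 h is in part built into that list. The mean includes replicate 2, so that a transcript high there alone could pass the 5 CPM minimum through it. Both the number and its direction are thus set in part by that kidney. Without it in the fit, 53 of the same 12893 transcripts differed over 2-fold.

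A single transcript passed the test. edgeR's quasi-likelihood test called 1 of 21112 transcripts (0.00474%) at an adjusted p under 0.05, with 0 higher and 1 lower at 34 h. At an unadjusted p under 0.05 there were 2039 (9.66%), 1009 higher (4.78%) and 1030 lower (4.88%) at 34 h. DESeq2 called 131 (0.621%), 70 higher (0.332%) and 61 lower (0.289%) at 34 h, and gave no adjusted p to 4276. For 346 transcripts (1.64%) the groups did not overlap, with 192 (0.909%) higher and 154 (0.729%) lower in every 34 h library. Of 14125 genomic intervals, edgeR called 0 (lowest adjusted p = 0.199), and 601 (4.25%) had an unadjusted p under 0.05.

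**Figure D4:**
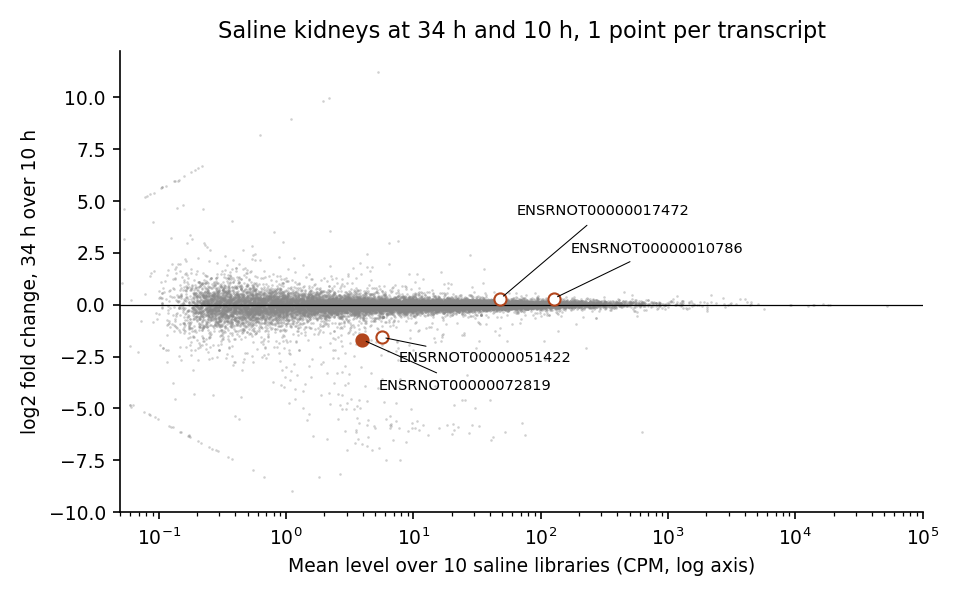
The log2 fold change of 34 h over 10 h in saline kidneys against the mean level in CPM (log axis), with 1 point per transcript. The cloud narrows as the level grows, the filled circle is the transcript called (log2 fold change −1.69), and the open circles are the 3 named transcripts that were not called.

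The called transcript, ENSRNOT00000072819 (3564 bp), was lower at 34 h. It had 2.01, 1.59, 1.995, 2.37 and 1.49 CPM in the 34 h libraries, against 5.56, 5.15, 8.65, 5.83 and 5.33 CPM in the 10 h libraries. All 34 h kidneys stood below all 10 h kidneys, and replicate 3 at 10 h was the highest. The log2 fold change was −1.69 (SE 0.19, 95% confidence interval −2.10 to −1.28, adjusted p = 0.0395 by edgeR's quasi-likelihood test). Its counts were not whole, and the call was made in 2 of the 10 fits that left out 1 library each (without replicate 4 at 34 h, where 2 transcripts were called, and without replicate 3 at 10 h), with adjusted p of 0.0388 to 0.217 over the 10 fits.

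A second transcript had a like pattern and was not called. ENSRNOT00000051422 (1135 bp) had 2.51, 2.95, 3.40, 3.43 and 2.05 CPM in the 34 h libraries, against 9.20, 6.24, 10.9, 10.2 and 6.0 CPM in the 10 h libraries. These groups did not overlap either, with a log2 fold change of −1.57 (SE 0.21, adjusted p = 0.133 by edgeR). It had the lowest unadjusted p after the called one among transcripts lower at 34 h, and its counts were not whole.

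Higher at 34 h, the smallest p values at 5 CPM or more belonged to small differences. ENSRNOT00000017472 (900 bp) had 50.4, 56.1, 52.8, 53.1 and 53.5 CPM in the 34 h libraries, against 45.2, 43.6, 42.2, 42.6 and 44.5 CPM in the 10 h libraries (log2 fold change 0.29, SE 0.04, adjusted p = 0.198 by edgeR). ENSRNOT00000010786 (5052 bp, whole counts) had 135.8, 135.2, 153.1, 137.2 and 142.1 CPM in the 34 h libraries, against 109.8, 116.0, 114.3, 121.5 and 110.1 CPM in the 10 h libraries (log2 fold change 0.30, SE 0.05, adjusted p = 0.198 by edgeR). Neither pair of groups overlapped, and neither transcript was called. All transcripts named for time were picked by this same comparison, so their lack of overlap adds no support.

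**Figure D5:**
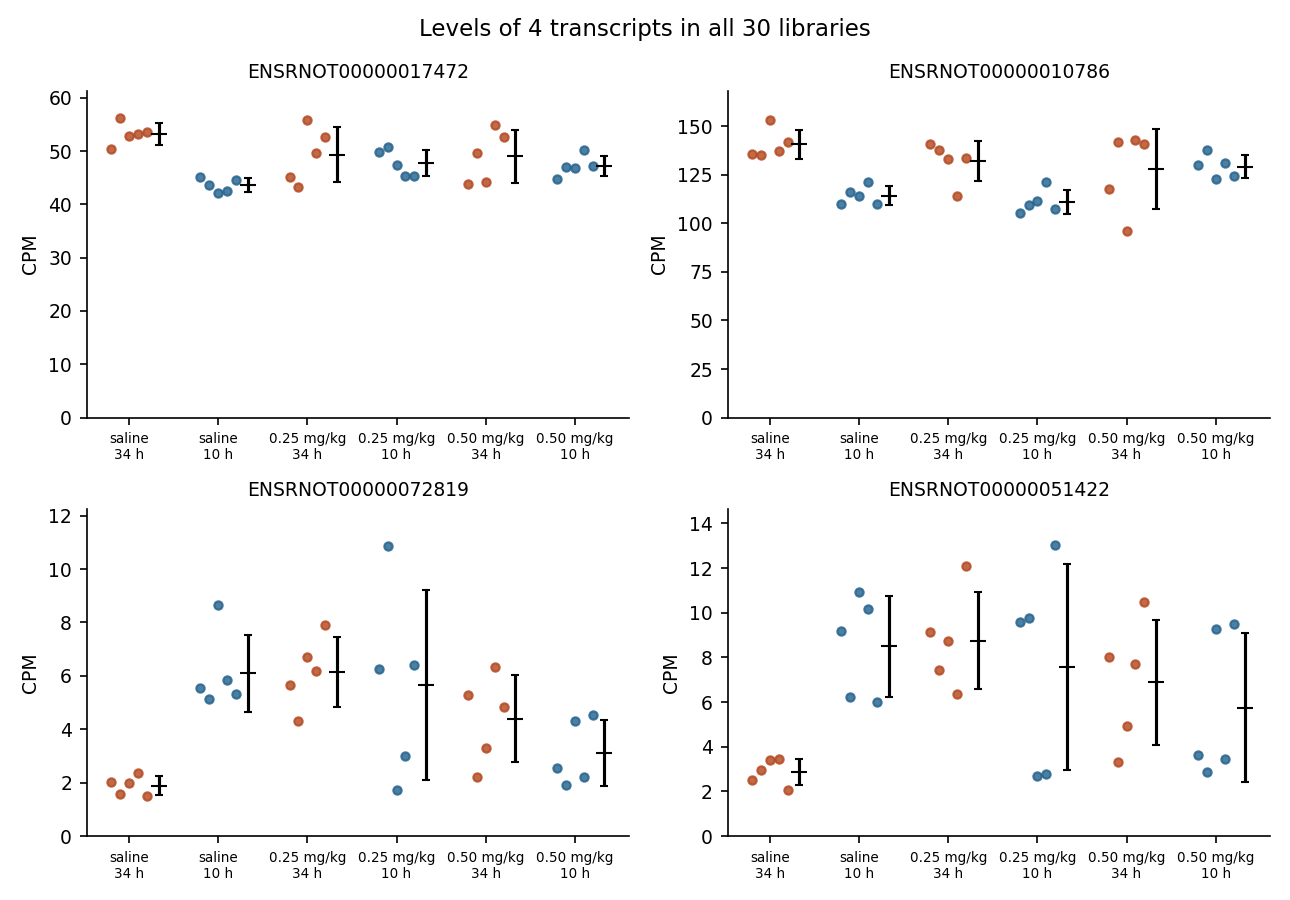
Level in CPM of the 4 named transcripts, 1 panel each, in all 30 libraries, with the 6 groups along the x axis (34 h in red, 10 h in blue) and the group mean ± SD (n = 5) beside the points. The saline groups do not overlap in any panel, while in the lower panels the treated libraries spread over both saline ranges. The 4 transcripts were picked by the saline comparison, so their separation in saline, also beside the treated libraries, carries no weight.

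The calls of DESeq2 were also of modest size. The median size of the log2 difference of its 131 transcripts was 0.31, their median level was 37.1 CPM and their median SD 0.104. The groups did not overlap for 100 of the 131, against 346 (1.64%) of all 21112 transcripts tested. All 131 had an unadjusted p under 0.05 in edgeR, against 9.66% of all. The 131 were picked by the same contrast of the same libraries, so these 2 counts add no support. Whole counts were found in 57 of the 131, against 8256 of the 21112. Of the 131, 0 were among the 244 transcripts high in replicate 2 at 10 h, a list that is itself a small part of the 21112.

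The treated kidneys, which share no library with the saline ones, were compared between the same times. edgeR called 0 of 21112 transcripts between 34 h and 10 h after 0.25 mg/kg (1894, or 8.97%, at an unadjusted p under 0.05) and 0 after 0.50 mg/kg (1963, or 9.3%), and DESeq2 called 225 (1.07%) and 103 (0.488%). With both doses in a fit that had dose as a term, edgeR called 0 (2226, or 10.5%, at an unadjusted p under 0.05). In a fit of all 30 libraries together edgeR called 0 in saline, 2 (0.00947%) after 0.25 mg/kg and 104 (0.493%) after 0.50 mg/kg. In these groups time since dosing and collection day go together, as they do in saline. After HgCl2 the comparison also holds any change over time in the response to the dose. That cannot be told apart from collection day, so the treated groups do not repeat the saline comparison.

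In both doses the called transcript had a higher mean at 34 h than at 10 h. ENSRNOT00000072819 averaged 6.16 ± 1.31 CPM at 34 h and 5.65 ± 3.56 CPM at 10 h after 0.25 mg/kg (SD, n = 5 each), with a log2 fold change of 0.12 (adjusted p = 0.956 by edgeR). After 0.50 mg/kg it averaged 4.40 ± 1.63 CPM at 34 h and 3.10 ± 1.23 CPM at 10 h, with a log2 fold change of 0.51 (adjusted p = 0.630). The saline difference minus the treated one was −1.82 on the log2 scale for the low dose and −2.19 for the high dose, and neither passed edgeR's test (adjusted p = 0.627 and 0.103). The transcript was picked by its saline difference, so the size of these values adds no support. Of the 20 treated libraries, 4 were at or under the highest saline library of 34 h, 9 at or over the lowest of 10 h and 7 in between.

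ENSRNOT00000051422 spread likewise, with 4 treated libraries in the 34 h saline range or under it, 13 in the 10 h range or over it and 3 between. In 3 libraries both transcripts were low and in 9 both were high. After 0.25 mg/kg at 10 h alone the first ran from 1.74 to 10.9 CPM and the second from 2.67 to 13.0 CPM, ranges that span both saline groups.

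ENSRNOT00000010786 had a log2 fold change of 34 h over 10 h of 0.25 after 0.25 mg/kg, near its 0.30 in saline, and it was not called (adjusted p = 0.308 by edgeR). After 0.50 mg/kg its log2 fold change was −0.0047. ENSRNOT00000017472 had log2 fold changes of 0.29 in saline, 0.05 after 0.25 mg/kg and 0.06 after 0.50 mg/kg.

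Over all 2039 transcripts with an unadjusted p under 0.05 in saline, 69.2% had the same sign of the time difference after 0.25 mg/kg, where 58.4% of all 21112 did. After 0.50 mg/kg 35.9% had the same sign, where 43.9% of all did. Unadjusted p under 0.05 in both saline and the low dose was reached by 254 transcripts in the same direction and 35 in the opposite one, and for the high dose by 40 and 141. In either direction this was 14.2% of the 2039 for the low dose, where 8.97% of all 21112 reached that p. For the high dose it was 8.88%, near the 9.3% of all. Both shares of the same sign lay farther from 50% than those over all transcripts, in opposite directions for the 2 doses. The order of library numbers also differed between the doses. In saline and after 0.25 mg/kg, every 10 h library has a lower number than any 34 h library. After 0.50 mg/kg every 10 h library has a higher number than any 34 h library. Shared and opposite signs thus went with library order as well as with dose, and the part of library order was not tested. For DESeq2's 131 transcripts the sign was shared by 99 with the low dose (75.6%, against 58.4% of all). With the high dose it was shared by 48 (36.6%, against 43.9% of all).

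Across the 12893 transcripts with a mean of 5 CPM or more, the time differences of saline and the low dose had Spearman's rho 0.27 and those of saline and the high dose −0.20. The signs of rho, too, went with the order of library numbers as well as with dose. Pearson's r was −0.20 with the low dose and −0.44 with the high dose. Without replicate 2 of saline at 10 h, r was 0.33 and −0.13, so that the sign of r for the low dose rests on that kidney. Transcripts are not independent of each other, and these values describe the libraries only.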

How the data were processed

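RNA from 30 rat kidneys was sequenced from stranded poly-A libraries in 75-bp pairs, per the labels' protocols. The authors deposited, for each library, estimated counts and TPM for 65166 targets, 40071 Ensembl transcripts and 25095 genomic intervals of 1003 to 20000 bp, per the file headers. These came from kallisto 0.42.2 with the genome build Rnor_6.0, per the submitters' processing notes. The deposited lengths and effective lengths are other values. Lengths printed here are the full ones, while the deposited TPM rests on effective length. The sources used here give no annotation release. kallisto splits reads that match several targets, so an estimated count need not be whole; 8256 of the transcripts tested had whole counts in all 30 libraries (within 1e-06). TPM keeps no depth.

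Estimated counts were rounded. Transcripts kept by filterByExpr over all 30 libraries (21112) were tested with edgeR 4.0.16 (quasi-likelihood, robust, TMM) on the 10 saline libraries, and on each dose alone, with p values adjusted over all transcripts tested. DESeq2 1.42.0 and limma 3.58.1 were alternatives. SEs were derived from the test, as the absolute log2 fold change over the square root of F. Levels are CPM after TMM; log2 CPM used a prior count of 2. Single values over libraries had exact permutation tests in Python 3.11.15 with scipy 1.17.1 (R 4.3.3 for the fits). The test was tried on simulated counts. Replicates of a group never agreed within sampling noise (chi-square per degree of freedom 13.3 to 56.2 over 20 pairs, transcripts with a summed count of 10 or more). Each animal gave 1 library. Reads carry no molecular identifiers, so counting SDs cover counting error only.

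No table pairs transcript IDs with genes: of 47357 reference genes of another assembly, 0 cells held such an ID. Counts per gene, as planned, and the lists of marker, clock, feeding and injury genes were therefore not analysed here. Named were the 10 transcripts highest in mean TPM, up to 2 higher and 2 lower at 34 h by call or smallest p at a mean of 5 CPM or more, the 3 most and 3 least variable, and the 3 farthest out in a library that stands apart. ENSRNOT00000072819 was included because it had been seen before, although its mean is under 5 CPM. The members, lists and rules were chosen with earlier results of these data known. Alternatives were other scaling, filters, prior counts, tools, TPM with pseudocounts of 1 and 0.1, intervals, whole counts, runs of library numbers and each library left out. Added after seeing the data were both doses in a fit with dose as a term, and the 2-fold counts and Pearson's r without replicate 2 at 10 h.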

Additional observations from a re-analysis of the deposited data

Results flagged for a closer look

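Of 66 sets of 5 saline values, 14 held a library far from the other 4 (gap over range above 0.71, which chance gives in about 1 set in 20). Replicate 2 at 10 h accounts for 7 of them, most on transcripts named because they are high in that library. Its distance to its group was 0.822 log2 units, its 244 high transcripts summed to 24559.9 CPM, and it had 398.5 CPM of ENSRNOT00000019969, 52.8 CPM of ENSRNOT00000015732, 26.2 CPM of ENSRNOT00000047655 and 35.7 CPM of ENSRNOT00000041341. It was also lowest in ENSRNOT00000079830, at 13253 TPM.

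Replicate 4 at 10 h held 8.86% of its counts in genomic intervals and was lowest in ENSRNOT00000049683, at 33069 TPM. Replicate 3 at 10 h was highest in ENSRNOT00000072819, at 8.65 CPM, the transcript called between the times. Among the 34 h libraries, replicate 5 had 17898 transcripts at 1 TPM or more and the lowest ENSRNOT00000041241, at 10543 TPM, replicate 3 had 3.41 CPM of ENSRNOT00000019969, and replicate 1 had 0.0829 CPM of ENSRNOT00000047655, a level of few reads.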

How the results depend on the processing

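The count of calls between 34 h and 10 h in saline stayed at 1 with DESeq2's size factors, a filter of 5 CPM in 5 libraries, no filter, intervals included and limma on log2(TPM + 1) or log2(TPM + 0.1), although limma's call was not ENSRNOT00000072819. It was 0 in the fit of all 30 libraries, with voom quality weights, and with 34 h libraries 43 to 45 or 51 to 52 alone. With whole counts only it was 0 too, but that fit does not hold ENSRNOT00000072819 and so could not repeat its call. DESeq2 gave 131 calls and leaving out 1 library gave 0 to 2. ENSRNOT00000072819 was called in 7 of 21 alternatives, with a log2 fold change of −1.78 to −0.90. After the low dose DESeq2 called 225, the fit of all libraries 2 and leave-one-out fits 0 to 5; after the high dose these were 103, 104 and 0 to 6. The cause was not tested.

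The share of variance between the times was 11.2 to 12.3% under other scalings and filters and 12.1 to 13.6% with 1 library left out, with every exact p over 0.05. Such a share is larger with fewer libraries, also where the times do not differ. By TPM the top 10, 100 and 1000 held 26.6, 45.5 and 71.9%, and 157.1 transcripts held 50%; with intervals the top 10 held 15.9%, the top 100 29.9%, the top 1000 54.9%, and 707.1 targets held 50%. The median SD was 0.138 with the 5 CPM filter and 0.166 with whole counts only, and 0.207 to 0.215 with 1 library left out. Leaving out 1 library gave 16.8 to 17.2, 31.4 to 31.8 and 57.6 to 57.9% in the top 10, 100 and 1000, and 579.2 to 591.6 transcripts for 50%. Without replicate 2 at 10 h, Pearson's r with the low dose was 0.33 in place of −0.20, r with the high dose −0.13 in place of −0.44, and the 2-fold count 53 in place of 117. No paired analysis was possible because the labels carry no replicate numbers; those used here follow library order and pair no animals.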

Other observations

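Of the genomic intervals with an unadjusted p under 0.05 between 34 h and 10 h in saline kidneys, 251 were higher and 350 lower at 34 h by edgeR, which called 0 of 14125. Their median log2 fold change over all intervals tested was −0.04.

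The median time difference of transcripts in saline kidneys shifted slightly over classes of level and of length. These medians pool transcripts, and their spread over animals was not tested. By level, the median log2 fold change of 34 h over 10 h ran from −0.06 below 1 CPM to 0.03 above 100 CPM. The median log2 fold change of 34 h over 10 h was 0.05 for the shortest of 5 length classes (42 to 1157 bp), 0.01, 0.00 and −0.01 for the next 3 and −0.05 for the longest (3675 to 25658 bp). The median within-group SD of single transcripts was 0.319 in the shortest class and 0.189 in the longest. The shortest class had the lowest median level, 2.39 CPM against 19.1 CPM in the longest.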
